A study of Mus musculus with 39 samples.

Results

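The change in the transcriptome between the 1-cell and the 2-cell stage was measured in mouse embryos that had been exposed to T247, an HDAC inhibitor (HDACi) described as selective for HDAC3. The comparison took all 3 arrays of 1-cell embryos and all 3 arrays of 2-cell embryos labelled T247, which are 6 of the 39 arrays of the series, and covered 15914 genes. The embryos (B6D2F1 x ICR) came from in vitro fertilization of oocytes of B6D2F1 females with sperm of ICR males. Zygotes were cultured in 10 µM T247 for 6 h starting at 4 h post insemination (hpi), then returned to medium without inhibitor and collected at 12 hpi (1-cell) or 24 hpi (2-cell). Embryos cultured without an HDACi and embryos given 10 µM MGCD0103, an inhibitor of several Class I HDACs, by the same schedule were measured at the same 2 stages, and control and T247 embryos also at 48 hpi (4-cell), with 3 arrays in each group. Embryos of all groups shared the parental strains and the fertilization in vitro, and no group is labelled with a gene deletion. Each array held RNA pooled from 100 embryos, so that differences between embryos cannot be seen, and in pooled RNA fewer transcribing embryos cannot be told apart from less RNA per embryo.

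An egg is transcriptionally silent and lives on RNA stored during its growth. After fertilization this maternal RNA is cleared, while the embryo's own genome is switched on in a minor wave in the zygote and a major wave at the 2-cell stage, together called zygotic genome activation (ZGA). HDACs remove acetyl groups from histones and other proteins, and HDAC3 works within the NCoR corepressor complex.

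Levels are log2 intensities after smooth quantile normalization, and an LFC is the 2-cell mean minus the 1-cell mean, fitted with limma over the 24 arrays of control, T247 and MGCD0103 embryos. Each gene is read by its brightest probe. A gene is said to have risen or fallen when its LFC was at least 1 in size with an adjusted P below 0.05. A probe was well above background when the image software flagged it so on the array. All 9 oocyte and embryo markers (among them Zp3, Gdf9, Nlrp5 and Pou5f1) were well above background on every T247 array of both stages. Their summed intensity lay between 371363 and 399587 on the 1-cell arrays and between 93577 and 101700 on the 2-cell arrays. Of 10 markers of cumulus and granulosa cells, Amh, Cyp11a1, Inha and Ptx3 were not well above background on any T247 array. Cyp19a1, Foxl2 and Has2 were well above background on all T247 arrays of both stages, and Fshr on all 1-cell and no 2-cell arrays. The summed intensity ran from 12853 to 13392 at the 1-cell and from 7938 to 8374 at the 2-cell stage. Of 8 sperm markers, Odf1, Smcp and Tnp2 were not well above background on any T247 array. Akap4 and Prm2 were well above background on all T247 arrays, and Prm1 and Tnp1 on all 2-cell and no 1-cell arrays. The sums of the sperm markers were 2082 to 2311 at the 1-cell and 681 to 858 at the 2-cell stage. The 6 T247 arrays lay on 1 slide, whereas the control replicates lay on 3 other slides and MGCD0103 on another, so that treatment and slide cannot be told apart, and both stages of a replicate lay on the same slide. Replicate 1 of the 2-cell control stood apart from its replicates, with correlations from 0.934 within that group against 0.994 to 0.996 within the T247 groups, and counts of differences from the control are also given without it, for all genes and by list. The share of all genes called changes with the scaling and with this array. A list count under another setting is therefore to be read against the all-gene counts of that setting.

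Under T247, 2575 of 15914 genes rose from the 1-cell to the 2-cell stage (16.2%) and 6481 fell (40.7%). The risers had a median LFC of 2.54, 993 of them exceeded 3 and 304 exceeded 5. The falls were more numerous but smaller, with a median LFC of -1.83, 927 genes below -3 and 20 below -5. The median LFC of all genes was -0.72. Intensities are relative to the array and RNA per embryo was not measured, and the balance moved with the scaling: quantile normalization gave 3182 risers and 4528 fallers, centring on the array median 3532 and 3970, and scaling to the 75th percentile 4697 and 2705. At the same time, the share of probes well above background was 52.0, 53.3 and 51.6% on the 1-cell arrays and 53.2, 54.1 and 57.4% on the 2-cell arrays. These shares overlapped, and the difference of 2.63 percentage points had a two-sided exact permutation P of 0.2, where the smallest possible value is 0.1.

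The 10 largest rises among genes well above background on all 6 arrays were BB287469, Gm8300, Cst9, AA684185, AA414992, Fthl17f, Gm4312, Gm2022, Gm4340 and Gm13043, with LFCs from 10.53 to 7.49. The LFC of AA684185 ran from 1.11 to 9.82 over the alternatives in processing. BB287469, a gene of the Eif1a-like family (GRCm38.p6, chromosome 12, 87816577 to 87820676), stood at 6.31, 6.23 and 5.82 on the 1-cell arrays and at 16.70, 16.57 and 16.68 on the 2-cell arrays, an LFC of 10.53 ± 0.21 (SE, limma adjusted P 4.08e-18). Gm8300 on the same chromosome (87514316 to 87518265) went from 4.42, 5.13 and 4.67 to 15.36, 15.25 and 15.19, also an LFC of 10.53. The stages did not overlap in either gene. In control embryos the LFC was 10.57 for BB287469, and Gm8300, not well above background on any 1-cell control array, was at least 1440-fold higher at the 2-cell stage. Gm2022 (LFC 8.20) lies on the same stretch of chromosome 12 (87892834 to 87896722). Cst9, which encodes a cystatin, rose from 5.44, 5.43 and 5.34 to 14.43, 14.30 and 14.25 (LFC 8.92 ± 0.41). Fthl17f, an X-linked ferritin heavy chain-like gene, rose with an LFC of 8.62 under T247 and 7.43 in control embryos. Of these 10 genes it alone had a called difference between T247 and control, 1.20 ± 0.37 (limma adjusted P 0.0163). The 10 genes were chosen by their LFC under T247, which enters the difference, so that the choice favours higher differences. BB287469, Gm8300, Gm2022 and Gm4340 have near-identical copies in the mouse genome, and a probe can take up signal from such copies.

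Most tested genes with a transient peak at the 2-cell stage, the classical marks of the major wave of ZGA, rose. Of the 33 members of this list 23 were tested. The others had no named probe that passed the detection filter, which asks for signal in every condition, the 1-cell stage included. Of the 23, 20 rose and 3 fell under T247, against 16.2% and 40.7% of all genes. Their median LFC was 5.09 against -0.72 for all genes, and 20 and 3 were also counted under every scaling. Zscan4f, of a family of telomere-associated zinc finger proteins, had an LFC of 6.64 under T247 and 7.01 in control embryos. The deubiquitinase genes Usp17la, Usp17lb, Usp17lc, Usp17ld and Usp17le rose by LFCs of 2.39 to 6.56, Tdpoz2 by 5.09, and Tdpoz1, not well above background at the 1-cell stage, at least 68.6-fold. The members that fell were Arg2 (-3.71), which encodes arginase 2, Zfp750 (-3.40) and Sp110 (-2.37), and all 3 also fell in control embryos. The difference from the control was called lower for 5 members, Gm4850 (-1.95), Tdpoz2 (-2.18), Zfp352 (-1.12), Usp17ld (-1.04) and Arg2 (-1.35), and higher for Fgf1 (1.54), a growth factor, against 14.8% lower and 4.61% higher among all genes. These counts moved with the scaling, to 3 lower and 4 higher with quantile normalization, 2 and 3 with scaling to the 75th percentile and 3 and 2 with centring, and to 5 and 3 without replicate 1 of the 2-cell control. The members of the Zscan4, Usp17l, Tdpoz and Gm families are close copies of each other, so their values are not separate measurements.

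Promoters of 2 of these genes are shown because they hold TATAAA, the letters of a TATA box, before the annotated start. Whether these letters act as a TATA box was not tested. They are the 250 bases before the start in RefSeq on GRCm38.p6, plus strand, 5′ to 3′, with TATAAA in capitals: Zscan4c at chr7:11005495-11005744, where the letters begin 54 bases before the start, and Usp17lc at chr7:103416446-103416695, where they begin 88 bases before it.
Zscan4c: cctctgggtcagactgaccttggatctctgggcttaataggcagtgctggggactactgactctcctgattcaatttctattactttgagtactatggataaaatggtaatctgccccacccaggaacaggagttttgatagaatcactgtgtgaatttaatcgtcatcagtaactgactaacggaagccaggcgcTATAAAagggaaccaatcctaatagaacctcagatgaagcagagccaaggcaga
Usp17lc: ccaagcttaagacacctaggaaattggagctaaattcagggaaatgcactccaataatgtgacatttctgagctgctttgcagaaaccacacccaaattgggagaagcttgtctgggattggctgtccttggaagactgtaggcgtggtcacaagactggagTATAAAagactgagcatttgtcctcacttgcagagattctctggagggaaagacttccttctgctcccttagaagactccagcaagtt
Searched on both strands of this window, TATAAA was found in 5 of the 10 members of the list with a promoter sequence, against 8.64% of the 12505 promoters of all genes tested. These members were Usp17lb, Usp17lc, Usp17ld, Zscan4c and Zscan4f, of families of close copies, so their promoters are not separate observations. It was found in 10.8% of the promoters of all genes that rose under T247 and in 14.4% of those that rose under T247 and not in control embryos with a called higher difference. The 2 promoters shown hold 3 and 1 CpG, where the median promoter of the genes tested holds 14. The LFC of Zscan4c was 2.46 under T247 and 2.54 in control embryos, and that of Usp17lc 5.98 and 5.70.

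Probes also crossed the background. Well above background on all 3 of the 2-cell and none of the 1-cell T247 arrays were 1937 of 31381 named probes (1815 genes), whereas 620 probes (596 genes) went the other way. The same counts were 1200 and 435 in control and 1619 and 513 in MGCD0103 embryos. They need all 3 arrays of a group to agree, and the 2-cell control arrays had 47.6, 54.3 and 50.7% of probes well above background. No such count was made without replicate 1 of the 2-cell control. Of the 1937 probes, 843 had the same pattern in control embryos. On the 2-cell control arrays, 907 of the 1937 were well above background on all 3, 694 on 1 or 2 and 336 on none. On MII oocyte arrays 1785 were well above background on none. The largest lower bounds belonged to another probe of BB287469 (at least 754-fold), Gm8300 by another probe (at least 640-fold), Tdpoz9 (at least 528-fold), Pramel17 (at least 481-fold), Ajap1 (at least 344-fold), which encodes an adherens junction-associated protein, and the olfactory receptor gene Olfr376 (at least 294-fold). Olfr376 read 1.84, 1.81 and 1.84 at the 1-cell and 12.02, 11.83 and 11.93 at the 2-cell stage. A bound sets the brighter group against the dimmest signal still well above background. Among probes that went off, Brix1, a ribosome assembly factor, read 9.81, 9.88 and 9.80 at the 1-cell stage and 2.60, 1.53 and 1.95 at the 2-cell stage (at least 71.8-fold lower). The DNA repair gene Rad54b was at least 50.2-fold lower, Mcm3ap at least 33.4-fold, Zfp169 at least 30.7-fold, Draxin at least 27.8-fold and Rgs2, a regulator of G protein signaling, at least 22.6-fold. Rad54b, Zfp169 and Rgs2 were also off on all 3 of the 2-cell control arrays, while Brix1 and Draxin were well above background on 1 and Mcm3ap on 2 of them.

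**Figure D1:**
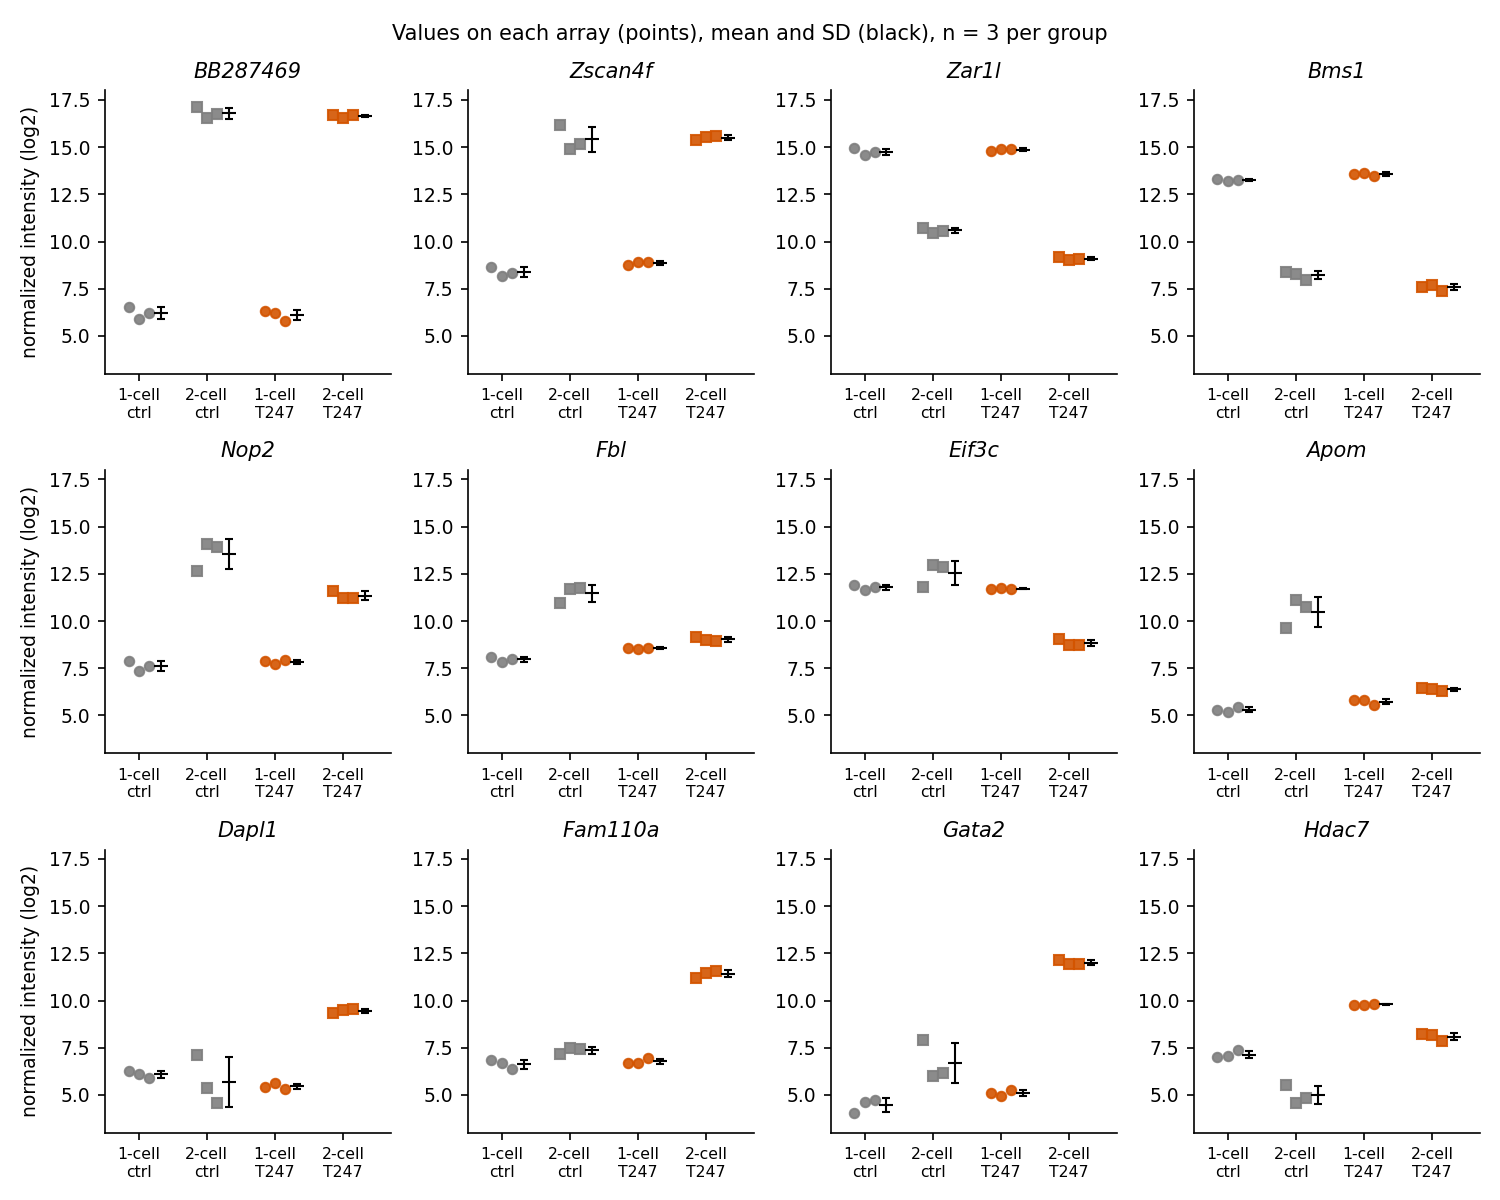
Normalized log2 intensity (vertical axis) of 12 genes on each array of 1-cell and 2-cell control (grey) and T247 (orange) embryos; points are arrays, and black marks are the mean and SD of 3 arrays. BB287469 and Zscan4f rose and Zar1l and Bms1 fell in both, Nop2 and Fbl ended lower and Fam110a and Gata2 higher under T247, and replicate 1 of the 2-cell control (leftmost grey square) lay away from the other two in several genes.

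The 10 largest falls among genes well above background on all 6 arrays were Bms1, Zar1l, Gspt2, Ftdc1, Cenpp, Pdpn, Patl2, Tmem50a, Papolg and Elp2, with LFCs from -5.99 to -5.13. Bms1, a GTPase of small ribosomal subunit assembly, went from 13.59, 13.65 and 13.45 to 7.60, 7.71 and 7.40, an LFC of -5.99 ± 0.13 (limma adjusted P 8.76e-18). Zar1l, a paralog of the maternal RNA-binding factor Zar1, went from 14.78, 14.89 and 14.91 to 9.19, 9.03 and 9.06, an LFC of -5.77 ± 0.12. Its fall in control embryos was smaller, with an LFC of -4.17, and the difference of -1.60 ± 0.17 was called (limma adjusted P 1.54e-06). The translation termination factor gene Gspt2 had an LFC of -5.76 and the poly(A) polymerase gene Papolg of -5.18. All 10 fell in control embryos as well, with LFCs from -3.49 for Pdpn to -5.05 for Bms1. The fall was called larger under T247 for 5 of them, Zar1l, Ftdc1 (-1.27), Cenpp (-1.28), Pdpn (-1.80) and Patl2 (-1.45), the last a regulator of oocyte mRNA. These 10 genes were chosen by their LFC under T247, which enters the difference, so that the choice favours lower differences. Among all genes 14.8% had a called lower difference.

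Maternal gene groups fell under T247 with no member that rose, where 16.2% of all genes rose and 40.7% fell. All 10 oocyte secreted and zona pellucida genes fell, with a median LFC of -2.0, from Oosp1 at -1.05 to Oosp2 at -3.30, and the zona pellucida gene Zp3 at -2.43. In the group of the subcortical maternal complex and maternal effect genes, 14 of 18 fell and 4 were not called, with a median LFC of -2.51. The components Padi6 (-3.05), Tle6 (-2.88), Nlrp5 (-2.57) and Ooep (-2.49) of the complex fell by similar amounts, and Zar1 by more (-4.50). Dppa3, a maternal factor that protects DNA methylation, had an LFC of -0.90 and was not called. Of 16 genes of meiotic maturation and egg arrest 12 fell, among them Mos (-4.26), the kinase that holds eggs in metaphase, Ccnb3 (-3.70), Plat (-3.57) and Pde3a (-3.02), and for none was the difference from control called (without replicate 1 of the 2-cell control, 3 were called higher and 1 lower). The medians of these 3 groups were below 0 under all scalings, and scaling to the 75th percentile left 5, 11 and 7 called falls and let 1 member each of the last 2 groups pass as a rise. The difference from control was called lower for Zp2 (-1.01), Zp3 (-1.29), Npm2 (-1.12), Zar1 (-1.35) and Zar1l. That is 2 of 10, 3 of 18 and 0 of 16 members of the 3 groups, against 14.8% of all genes. With quantile normalization the called lower differences numbered 0, 1 and 0 in the 3 groups, and without replicate 1 of the 2-cell control 3, 3 and 1.

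Most genes that fell were already detected in the egg. On MII oocyte arrays, which entered no fit, 92.5% of the 6481 genes that fell under T247 were well above background on all 3 arrays, against 77.4% of all genes tested and 44.3% of the genes that rose. The calls partly fix this contrast, because a fall needs signal at the 1-cell stage. Only 45 of the genes that fell, but 823 of the 2575 that rose, were well above background on no 1-cell T247 array. Genes of the machinery that removes mRNA moved both ways: of 34 members of the mRNA deadenylation and decay list, 5 rose and 18 fell, with a median LFC of -1.15, where 16.2% of all genes rose and 40.7% fell. With quantile normalization 6 rose and 13 fell (median -0.19), with centring 6 and 11 (-0.55) and with scaling to the 75th percentile 7 and 8 (-0.15). Zfp36l2, whose protein recruits the deadenylase to AU-rich mRNA, had an LFC of 5.62, and the uridylyltransferase genes Tut4 and Tut7 of 3.61 and 1.18. Zfp36l2 was well above background on 2 and Tut4 on 1 of the 1-cell T247 arrays, and neither on a 1-cell control array, and in control embryos they were at least 73.9-fold and at least 19.9-fold higher at the 2-cell stage. Pabpc1, the somatic poly(A)-binding protein gene, rose (2.66) while the oocyte forms Pabpc1l (-2.82) and Pabpn1l (-4.06) fell. Btg4, the adapter of maternal mRNA deadenylation, had an LFC of -0.92 and was not called. The rise of Pabpc1 was called smaller than in control embryos (difference -1.30), and for Cnot10, a deadenylase subunit gene, the difference was -1.92. In all 7 members had a called lower difference and 1 a higher one, against 14.8% and 4.61% of all genes. These counts were 9 and 1 without replicate 1 of the 2-cell control and 3 or 4 and 1 under the other scalings.

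The transition under T247 was then set beside the transition of control embryos, which shares no array with it, to ask which changes both shared. In control embryos 3000 genes rose (18.9%) and 5365 fell (33.7%). Of the genes that rose under T247, 2067 (80.3%) also rose in control, which is 68.9% of the control risers. Of those that fell under T247, 4639 (71.6%) also fell in control, which is 86.5% of the control fallers. Opposite calls were rare, with 18 genes that rose under T247 and fell in control and 28 the other way. Across genes, the LFCs of both transitions had a Pearson r of 0.889 and a Spearman rho of 0.859, a description over 15914 genes that are not independent replicates.

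The difference between both changes was tested directly (T247 LFC minus control LFC). It was higher for 733 genes (4.61%) and lower for 2348 (14.8%), with a median of -0.27. The lower side outnumbered the higher less with quantile normalization (1253 higher, 1503 lower) and with centring on the median (1145 and 1290), and the order turned with scaling to the 75th percentile (1446 and 904). Without replicate 1 of the 2-cell control the counts were 1371 and 3283. A group of 973 genes rose in control embryos with a called lower difference under T247. Of these, 384 still rose under T247, 561 had no called change and 28 fell, and their median LFC was 2.38 in control, 0.59 under T247 and 0.17 under MGCD0103. The choice of the genes partly fixes the medians in control and under T247. A further 301 genes rose under T247 and not in control with a called higher difference (median LFC 1.97 and 0.11), and 230 rose in both but more under T247 (4.31 and 2.07). In the falling direction, 450 genes fell in both with a called lower difference (-3.07 and -1.74), and 650 fell under T247 without a call in control and with a called lower difference (-1.66 and -0.23). The number of genes that rose less under T247 was 1721 without replicate 1 of the 2-cell control and 599 with scaling to the 75th percentile.

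**Figure D2:**
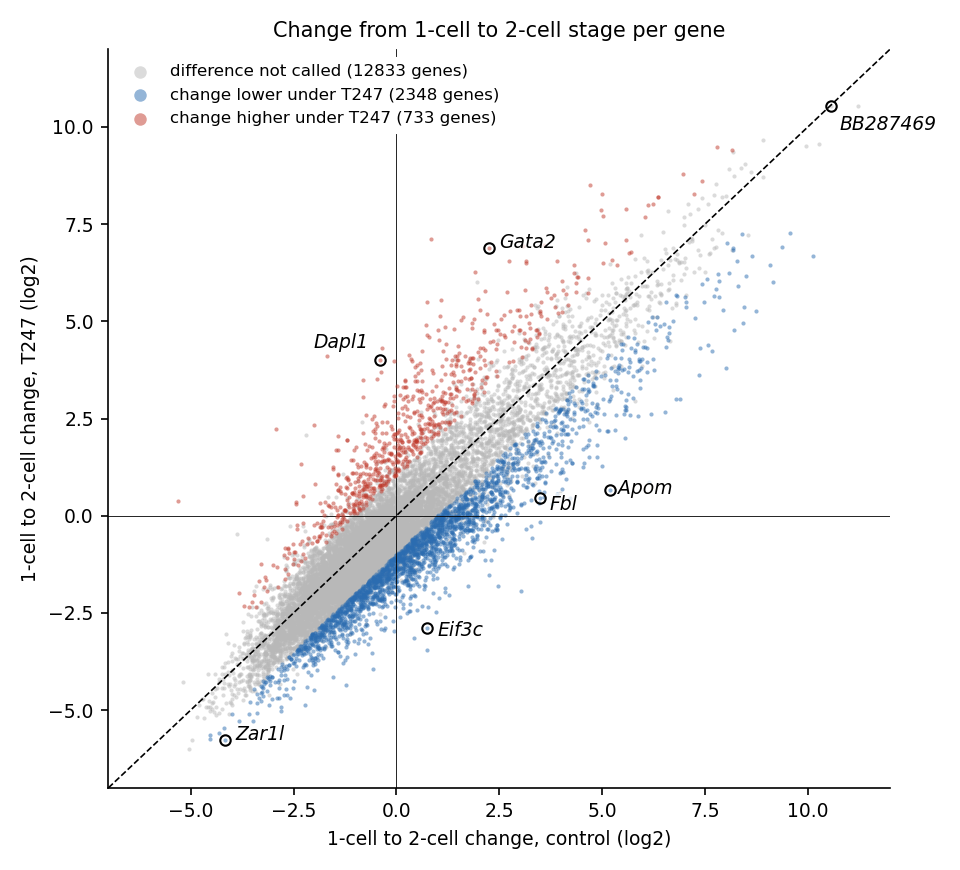
LFC between both stages in control embryos (horizontal axis) and under T247 (vertical axis) for 15914 genes, with genes of a called difference in red (733 higher) and blue (2348 lower) and the dashed line marking equal changes. The 12833 genes with no called difference (grey) run along the dashed line, BB287469 lies on it, Fbl, Apom and Eif3c lie below and Dapl1 and Gata2 above.

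Ribosome biogenesis was the list with the largest share of called differences. Of its 38 tested members 27 had a called lower change under T247 than in control and none a higher one, against 14.8% and 4.61% of all genes. The counts of lower members were 21 with quantile normalization, 20 with centring, 18 with scaling to the 75th percentile and 29 without replicate 1 of the 2-cell control, each with 0 higher. In control embryos 12 members rose and 10 fell, with a median LFC of 0.26, against 18.9% and 33.7% of all genes. Under T247 4 rose and 19 fell, with a median of -1.08, against 16.2% and 40.7% of all genes. With quantile normalization 8 rose and 14 fell under T247 (median -0.16), with scaling to the 75th percentile 8 and 12 (-0.07) and with centring 7 and 15 (-0.48). Under MGCD0103 2 rose and 25 fell, against 14% and 33.7% of all genes. Nop2, which encodes a nucleolar rRNA methyltransferase, stood at 7.88, 7.74 and 7.92 at the 1-cell stage under T247 and reached 11.60, 11.21 and 11.23, while the control arrays went from 7.90, 7.33 and 7.62 to 12.64, 14.06 and 13.92. All 2-cell values under T247 lay below all 2-cell control values, and the LFC of 3.50 differed from that of the control by -2.43 (limma adjusted P 3.33e-05). Fbl, the methyltransferase of box C/D RNPs, rose in control by an LFC of 3.48 and was not called under T247 (0.46), a difference of -3.02 (limma adjusted P 4.52e-08). Its partner Nop58 stood likewise at 2.19 and -0.54, and Nop56 at 2.92 and 1.33. The helicase gene Ddx18 rose in control (1.52) and fell under T247 (-1.25). The RNA polymerase I subunit genes Polr1a, Polr1b and Polr1c had differences of -1.72, -2.14 and -1.21. Utp4, of the small subunit processome, fell in both, by LFCs of -1.55 in control and -4.15 under T247, whereas the Pol I factor gene Ubtf had LFCs of -2.43 and -2.46.

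Promoters of 2 members are shown because they hold CCGGAAG, the core letters of ETS factor sites, near the start. They are again the 250 bases before the start on the plus strand of GRCm38.p6 from RefSeq, with CCGGAAG in capitals: Nop2 at chr6:125131633-125131882, with the letters beginning 38 bases before the start, and Nolc1, a nucleolar phosphoprotein gene, at chr19:46075597-46075846, with the letters beginning 14 bases before it.
Nop2: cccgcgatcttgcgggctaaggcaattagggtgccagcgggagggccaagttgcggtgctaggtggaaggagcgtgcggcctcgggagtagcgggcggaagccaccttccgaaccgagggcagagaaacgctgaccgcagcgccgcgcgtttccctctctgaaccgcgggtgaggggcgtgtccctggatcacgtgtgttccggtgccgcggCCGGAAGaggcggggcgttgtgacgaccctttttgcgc
Nolc1: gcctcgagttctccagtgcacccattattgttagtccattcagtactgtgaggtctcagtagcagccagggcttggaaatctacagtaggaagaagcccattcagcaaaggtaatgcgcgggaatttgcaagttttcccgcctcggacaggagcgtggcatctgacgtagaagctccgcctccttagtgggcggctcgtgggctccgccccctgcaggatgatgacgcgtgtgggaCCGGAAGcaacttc
CCGGAAG was found on either strand in 10 of the 34 promoters of the list (29.4%), against 11.9% of all promoters tested. Other lists held it in like measure, with shares of 36.6% for the spliceosome, 32% for the proteasome and 23.3% for translation initiation. The share was 20.9% in the 650 genes that fell under T247 without a call in control and with a called lower difference, 14.4% in all genes that fell under T247 and 6.36% in the 301 genes that rose under T247 and not in control with a called higher difference. In contrast to the Zscan4c and Usp17lc promoters, these 2 hold 30 and 14 CpG. Nolc1 fell under T247 (-1.70) and was not called in control (0.29), with a difference of -1.99 (limma adjusted P 0.00101).

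Genes of translation initiation and of protein turnover differed in the same direction. Of 39 initiation factor genes 3 rose and 23 fell under T247 (median LFC -1.61), and 14 had a called lower difference and 0 a higher one, where among all genes 16.2% rose, 40.7% fell, 14.8% had a lower and 4.61% a higher difference. The rises and falls became 5 and 14 (median -0.61) with quantile normalization, 5 and 12 (-0.60) with scaling to the 75th percentile and 3 and 20 (-1.0) with centring. Eif3c, a core subunit of eIF3, stood at 11.72, 11.74 and 11.70 at the 1-cell and 9.03, 8.74 and 8.72 at the 2-cell stage under T247, and at 11.92, 11.65 and 11.81 and then 11.80, 12.99 and 12.85 in control. The T247 stages did not overlap, and the LFCs of -2.90 and 0.75 differed by -3.65 ± 0.28 (limma adjusted P 6.99e-08). Eif2b5 (-1.77 under T247, 0.68 in control) and Eif4h (-2.11 and 0.33) showed the same pattern, with called differences of -2.46 and -2.44. Of 31 proteasome genes 24 fell under T247 and none rose, and 13 had a called lower difference. The proteasome falls and rises became 16 and 1 with quantile normalization, 15 and 2 with scaling to the 75th percentile and 19 and 1 with centring. Psmb5, a catalytic subunit gene, rose in control (1.29) and fell under T247 (-2.03), and Psmc5, an ATPase of the regulatory particle, fell in both (-2.86 and -4.70). In the spliceosome list 3 members rose and 24 fell, or 11 and 16 on scaling to the 75th percentile, and 16 of 48 differences were called lower and 0 higher, the largest being Sf3a1 (-1.74). Among 20 chaperone genes 3 rose and 11 fell under T247, and 7 differences were called lower, including 4 subunit genes of the cytosolic chaperonin, Cct3 (-2.07), Cct6a (-1.84), Tcp1 (-1.82) and Cct2 (-1.08), while none was called higher. Hspa1a, an early marker of ZGA, rose under T247 (3.61) and in control (3.55). The chaperone counts became 5 rises and 4 falls with quantile normalization, 4 and 4 with scaling to the 75th percentile and 3 and 6 with centring. Under these scalings the called lower differences were 8 for initiation factors each time, 7 to 9 for the proteasome, 7 to 11 for the spliceosome and 4 or 5 for the chaperones, and 1 or 2 spliceosome members were called higher. Without replicate 1 of the 2-cell control, 19 initiation factor, 15 proteasome, 17 spliceosome and 7 chaperone differences were called lower, and 0, 1, 6 and 0 higher.

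**Figure D3:**
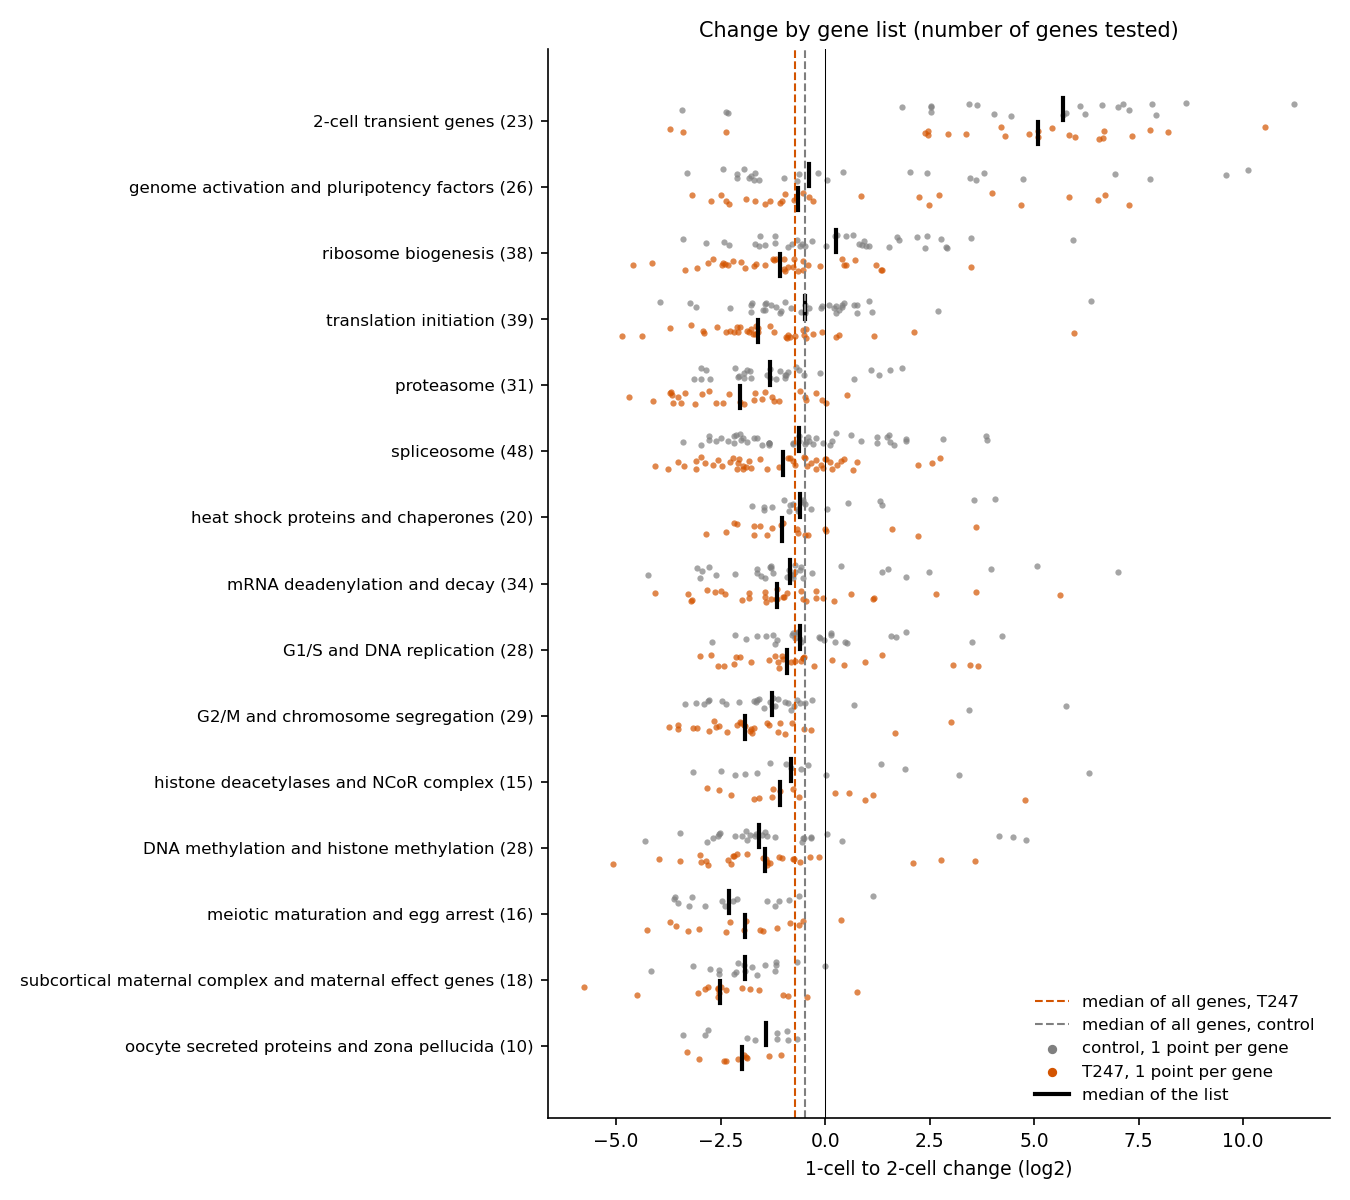
LFC between the 1- and the 2-cell stage for the tested members of each gene list (1 point per gene) in control (grey) and under T247 (orange), with black bars for list medians and dashed lines for the medians of all genes (-0.72 under T247, -0.48 in control). The 2-cell transient genes have medians of 5.70 in control and 5.09 under T247, and the median of the ribosome biogenesis genes moves from 0.26 in control to -1.08 under T247.

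Cell cycle genes rose in few cases. Of 28 genes of G1/S and DNA replication 4 rose and 14 fell under T247, and of 29 genes of G2/M and chromosome segregation 2 rose and 23 fell, against 16.2% and 40.7% of all genes. On scaling to the 75th percentile these became 7 and 7 (median 0.09 in place of -0.91) and 2 and 12, with quantile normalization 6 and 7 and 2 and 15, and with centring 6 and 8 and 2 and 19. Cdkn1a, the p21 inhibitor of cyclin-dependent kinases, rose more under T247 (3.46) than in control (1.58), a difference of 1.88 (limma adjusted P 1.41e-05). Ccnd1 (1.37 and 3.51), Cdk1 (3.02 and 5.76, well above background on 2 of the 3 1-cell control arrays) and Cdc25c (1.67 and 3.43) rose less, with differences of -2.14, -2.74 and -1.76. The replication licensing genes Cdc6 (0.16 and 1.94) and Cdt1 (-2.13 and -0.59) also had called lower differences, of -1.79 and -1.53. Kif2c, a microtubule depolymerase of the centromere, fell under T247 (-3.52) and was not called in control (-0.59), a difference of -2.92 (limma adjusted P 4.48e-07). The mitotic kinase genes Aurka and Plk1 fell in both and further under T247 (differences -1.27 and -1.09), whereas Ccnb1 had a difference of 0.25 that was not called. In these groups 8 of 28 and 9 of 29 differences were called lower, and 2 and 0 higher, against 14.8% and 4.61% of all genes. With scaling to the 75th percentile 4 and 4 were lower, and without replicate 1 of the 2-cell control 12 and 8 were lower and 1 and 1 higher.

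Among 26 ZGA and pluripotency factors 9 rose and 11 fell under T247 (median LFC -0.64, but 10 and 5 with a median of 0.39 on scaling to the 75th percentile, and 10 and 7 with quantile normalization or centring), where 16.2% of all genes rose and 40.7% fell. The difference from control was called lower for 7 and higher for 2 of them, against 14.8% and 4.61% of all genes. Without replicate 1 of the 2-cell control the counts were 9 and 3, where 3283 and 1371 of all 15914 genes were called. Obox6, of the oocyte-specific homeobox family, stood at 10.45, 10.42 and 10.45 at the 2-cell stage under T247 and at 12.36, 13.63 and 13.75 in control. At the 1-cell stage its probe was well above background on only 1 T247 array and no control array, and in control embryos it was at least 476-fold higher at the 2-cell stage. Crxos, another homeobox gene, rose by LFCs of 7.27 and 9.58, with a difference of -2.31 that became 0.26 (limma adjusted P 0.405) when the probes were limited to those well above background on all arrays. Gabpa, an ETS family factor gene not well above background on any 1-cell array, was at least 29.3-fold higher at the 2-cell stage under T247 and at least 110-fold in control. Dppa4 rose in control (3.61) and was not called under T247 (0.86), and its partner Dppa2 fell under T247 (-2.37) without a call in control (-0.68). Both encode chromatin proteins that act upstream of 2-cell genes. Klf4 (2.24 and 2.44) rose in both with no called difference, and Klf5, not well above background on any 1-cell T247 array, was at least 72.1-fold higher at the 2-cell stage. Myc, off at the 1-cell stage, was at least 7.98-fold higher under T247 and at least 4.47-fold in control, and the difference for Esrrb (1.37) was called higher, and Nr5a2 and Nfya, whose products bind promoters at ZGA, fell under T247 (-1.68 and -3.18) with no called difference.

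The genes of the inhibitors' targets and their partners were read as a list too. Of 15 genes of histone deacetylases and the NCoR complex 2 rose and 8 fell, where 16.2% of all genes rose and 40.7% fell, and the counts became 5 and 3 on scaling to the 75th percentile, 4 and 5 with quantile normalization and 4 and 4 with centring. The difference from control was called lower for 3 and higher for none, against 14.8% and 4.61% of all genes. Both counts were the same without replicate 1 of the 2-cell control, where 3283 of all 15914 genes were called lower and 1371 higher. Hdac1 rose by an LFC of 4.78 under T247 and of 6.32 in control (difference -1.55, limma adjusted P 0.000532). Hdac3 was well above background on all 3 of the 1-cell arrays and none of the 2-cell arrays of T247 and control alike (at least 4.68-fold and at least 4.42-fold lower), and Hdac2 had LFCs of -1.59 and -1.62. Of the NCoR complex, Tbl1x rose less under T247 (1.15) than in control (3.19), and Gps2 fell (-1.24). Of 28 genes of DNA and histone methylation 3 rose and 20 fell under T247, or 3 and 13 with quantile normalization or centring and 3 and 12 on scaling to the 75th percentile. The difference from control was called lower for 4 of these 28 and higher for 0, near the 14.8% lower among all genes. It was called for 4 and 4 without replicate 1 of the 2-cell control, and for 1 each under every other scaling. The maintenance methyltransferase gene Dnmt1 (-3.97), the imprint keeper Zfp57 (-5.08) and the dioxygenase gene Tet3 (-3.47) fell in control too. Kdm5b, a demethylase of H3K4 methylation, rose less under T247 (2.10) than in control (4.16), with a difference of -2.06 (limma adjusted P 9.26e-06).

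Beyond the lists, the largest higher differences among genes well above background on all 12 arrays of T247 and control were those of Dapl1, Adgrb1, Fam110a, Tent5a, Ccdc61, Fgd3, Crispld2 and Pcdh19. Dapl1, a death-associated protein-like gene, stood at 5.44, 5.61 and 5.32 and then 9.36, 9.48 and 9.55 under T247, and at 6.25, 6.13 and 5.89 and then 7.13, 5.37 and 4.56 in control. Its LFC of 4.01 differed from that of the control (-0.41) by 4.41 ± 0.59 (limma adjusted P 1.61e-05). Fam110a went from 6.72, 6.67 and 6.94 to 11.21, 11.46 and 11.58 under T247, with an LFC of 4.64 against 0.75 in control and a difference of 3.89. Adgrb1, an adhesion G protein-coupled receptor gene (difference 4.01), Crispld2 (3.14) and the protocadherin gene Pcdh19 (3.13) rose under T247 and were not called in control. Tent5a, a poly(A) polymerase gene, differed by 3.80 and Fgd3 by 3.28. Ccdc61 rose under T247 (2.04) but fell in control (-1.42). The 2-cell T247 values of all 8 genes lay above all their 2-cell control values. The genes were chosen by differences computed from these same arrays, which makes such a separation likely.

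The largest lower differences belonged to Apom, Clint1, Mcts1, Eif3c, Zmat5, Prkch, Purb and Rpusd3. Apom, which encodes apolipoprotein M, went from 5.84, 5.81 and 5.56 to 6.45, 6.41 and 6.30 under T247 (LFC 0.65, not called) and from 5.28, 5.17 and 5.43 to 9.61, 11.11 and 10.74 in control (5.19). The difference was -4.54 ± 0.36 (limma adjusted P 8.58e-08). Mcts1, a translation factor gene, had LFCs of -0.57 and 3.30, and here part of the difference lay at the 1-cell stage, where T247 embryos stood at 7.57, 7.27 and 7.37 and control embryos at 5.36, 5.11 and 5.29. Purb was likewise higher at the 1-cell stage under T247 (8.47, 8.36 and 8.57 against 5.56, 6.08 and 6.47). Clint1, Zmat5 and Rpusd3 fell under T247 by LFCs of -3.45, -3.15 and -2.47 and were not called in control. In these 3 genes replicate 1 of the 2-cell control (6.29, 7.39 and 8.57) lay below the other two (for Clint1 10.35 and 10.42) and nearer to the T247 arrays. The kinase gene Prkch rose in control (3.28) and was not called under T247 (-0.27).

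A further 5 genes, chosen with their expression in these samples known, followed different courses. Gata2, a transcription factor gene of blood and trophoblast lineages, rose from 5.12, 4.95 and 5.27 to 12.17, 11.94 and 11.93 under T247 and from 4.03, 4.64 and 4.73 to 7.93, 6.03 and 6.17 in control, where 2 of the 3 1-cell arrays were well above background. The LFCs of 6.90 and 2.24 differed by 4.66 ± 0.50 (limma adjusted P 1.77e-06), and the 2-cell groups did not overlap. Hdac7, Vax2 and Magef1 instead fell under T247 from a level that was already high at the 1-cell stage. Hdac7 went from 9.79, 9.75 and 9.84 to 8.25, 8.16 and 7.87 under T247 and from 6.99, 7.06 and 7.37 to 5.53, 4.60 and 4.85 in control, so that the lowest 2-cell T247 value was above the highest 1-cell control value. The LFCs were -1.70 and -2.15 for Hdac7, -2.48 and -3.04 for Vax2 and -3.23 and -3.31 for Magef1, and none of the 3 differences was called (0.45, 0.56 and 0.08). Magef1 was well above background on 1 of the 3 control arrays at the 2-cell stage. Eid2, an inhibitor of differentiation, was not well above background on any 1-cell array, and at the 2-cell stage it was at least 1.72-fold higher under T247 and at least 28.7-fold higher in control.

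The transition under T247 was close to that under MGCD0103, which was given at the same dose and times. Across 15914 genes the LFCs of both had a Pearson r of 0.953 and a Spearman rho of 0.930, as a description. Under MGCD0103 2230 genes rose (14%) and 5369 fell (33.7%). Of the T247 risers 2060 (80.0%, or 92.4% of the MGCD0103 risers) and of the T247 fallers 4933 (76.1%, or 91.9%) were shared, and 1 gene had opposite calls. The change was called higher under T247 than under MGCD0103 for 291 genes (1.83%) and lower for 177 (1.11%). This count was not stable, with 119 and 47 genes after normexp background correction and 707 and 505 with array weights. The 301 genes that rose under T247 and not in control with a called higher difference had a median LFC of 1.75 under MGCD0103. There 78.4% of them rose, a share like the 80.0% of all T247 risers, against 14% of all genes. Of the 973 genes that rose less under T247 30.2% rose under MGCD0103, with a median LFC of 0.17. Ribosome biogenesis genes had a median LFC of -1.53 under MGCD0103, with 2 of 38 members called higher under T247 than under MGCD0103 and none lower. A missing call does not show that the inhibitors acted alike.

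The 4-cell arrays, which were not among the groups compared to choose the genes above, show where these genes stood later. They did enter the detection filter, the choice of probe, the normalization and the shared estimate of the spread. Genes not detected at the 4-cell stage were therefore left out. Of the 3 T247 arrays 1 lay on the slide of the earlier stages and 2 on another. At the 4-cell stage 1799 genes were higher under T247 than in control (11.3%) and 1030 were lower (6.47%), with a median LFC of -0.02. Of the 973 genes that had risen less under T247, 3.08% were lower and 8.32% higher at the 4-cell stage, and their median was -0.03. Their median difference from control at the 2-cell stage, which the choice of genes partly fixed, had been -1.49. Of the ribosome biogenesis genes 0 of 38 were lower and 1 was higher, with a median of -0.27. Of the 301 genes that rose under T247 and not in control with a called higher difference, 24.9% were higher and 9.63% lower at the 4-cell stage (median 0.32). This was close to all genes that rose under T247, with 23.3% higher and 4.19% lower (median 0.31). Of the 230 genes that had risen in both but more under T247, 37.0% were higher and 2.61% lower (median 0.67). Of the 23 tested 2-cell transient genes 12 were higher under T247 at the 4-cell stage and 0 lower, with a median of 1.1, among them Zscan4a (1.80), Zscan4c (1.76), Usp17lb (1.86) and Gm8300 (1.28). Gata2 (4.04), Hdac7 (1.62), Vax2 (2.01), Magef1 (3.22) and Crispld2 (2.84) were called higher at the 4-cell stage, while Fam110a (-0.10) and Apom (-0.11) were not called. Against control development, 73.1% of the genes that rose under T247 were higher in 4-cell than in 1-cell control embryos (27% of all genes) and 66.4% of those that fell were lower (43.7% of all genes).

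**Figure D4:**
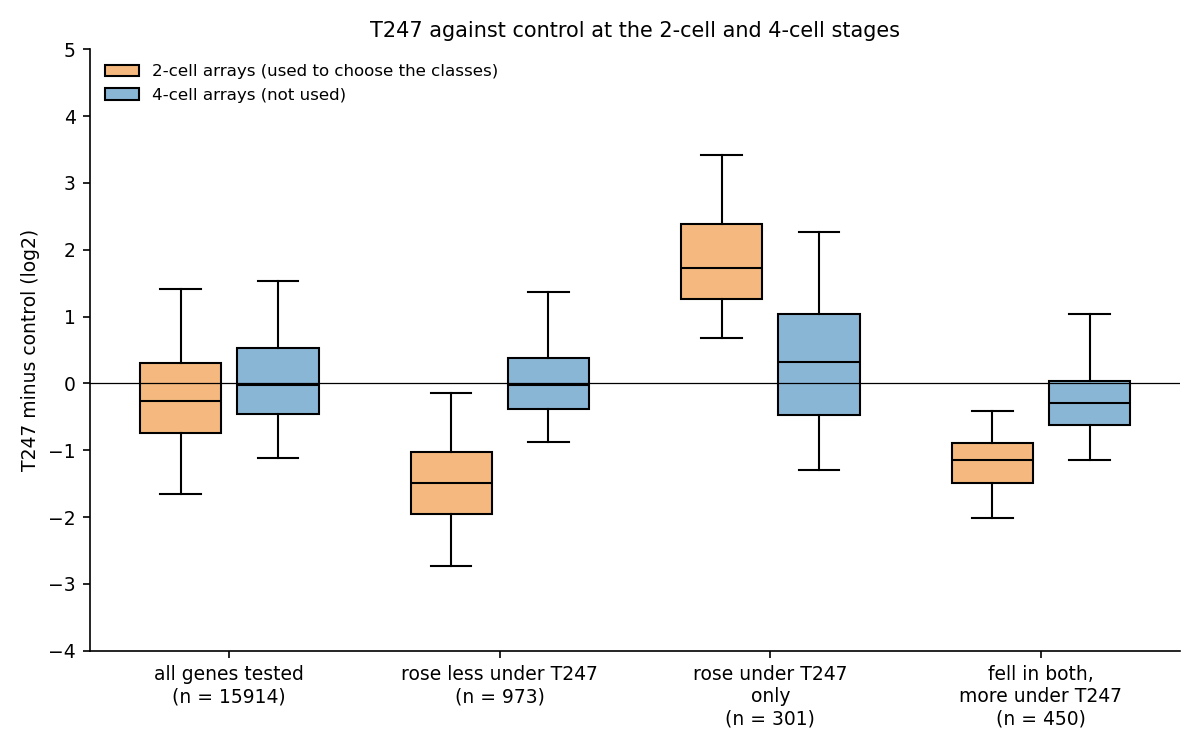
T247 minus control (log2) at the 2-cell (orange) and 4-cell (blue) stage for all 15914 genes and for 3 groups of genes; boxes span the quartiles with the median as a line, and whiskers run from the 5th to the 95th percentile. The 2-cell values of the groups were used to choose them; at the 4-cell stage the medians are -0.03, 0.32 and -0.30.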

How the data were processed

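Arrays (8x60K, 1 colour, Cy3) had been hybridized with cRNA amplified from the poly(A) tail of RNA pooled from 100 embryos, in independent replicates. RNA with a short tail can therefore be underrepresented. The deposited scanner files hold spot intensities extracted by the authors with Agilent Feature Extraction (9.5.1.1 per the labels, 10.7.1.1 per the file headers). The deposited log2 values of the series had been filtered, filled in and smooth quantile normalized by the authors, and were used only as an alternative. From the processed intensities, spots not flagged as positive and significant were set to missing, a probe was kept when at least 1 of 3 replicates in each condition was measured, missing values were filled in from the covariance of the arrays (2.89%), the brightest probe stood for each of 15914 genes, and the 24 arrays of 8 conditions were smooth quantile normalized. Contrasts came from limma 3.58.1 (R 4.3.3), with P adjusted by Benjamini-Hochberg over all genes, and were called at an absolute LFC of 1 or more and an adjusted P under 0.05. Errors of an LFC are SEs. No spot was saturated, and the number of arrays limits the precision. The fit was tested on simulated data.

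The genes named in the text are the 10 largest rises and falls under T247 well above background on all 6 arrays, the 6 probes switched on and the 6 switched off with the largest bounds, the 8 highest and 8 lowest differences between T247 and control, the list members with the largest changes and those with a called difference, and Gata2, Vax2, Magef1, Hdac7, Apom and Eid2. Members of the lists named beyond this rule were chosen after their values were seen. The members, lists and tests were chosen with earlier results of these data known. Where a gene was named for its change or difference, that choice favours groups that do not overlap. A bound compares the brighter group with, per array, the higher of the lowest signal well above background and the dim probe's own. Promoter sequences and coordinates are from RefSeq (GRCm38.p6), matched by symbol for 12505 genes. Deviations of same-numbered 1-cell and 2-cell arrays from their group means had correlations of 0, 0.01 and 0 under T247. In control they were 0.09, 0.03 and 0.11. These values cannot tell whether replicates were paired, and counts with a replicate block are given below.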

Additional observations from a re-analysis of the deposited data

Results flagged for a closer look

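The change between the stages differed between treatments, by a test of the difference of both changes, for 733 genes with a higher and 2348 with a lower change under T247 than in control, and for 291 with a higher and 177 with a lower change than under MGCD0103. Among the genes named, the change was higher under T247 than in control for Gata2 (4.66 on the log2 scale), Dapl1 (4.41), Adgrb1 (4.01), Fam110a (3.89), Tent5a (3.80), Ccdc61 (3.47), Fgd3 (3.28), Crispld2 (3.14) and Pcdh19 (3.13). It was lower for Apom (-4.54), Clint1 (-4.19), Mcts1 (-3.87), Eif3c (-3.65), Zmat5 (-3.57), Prkch (-3.55), Purb (-3.50) and Rpusd3 (-3.45).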

How the results depend on the processing

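The values below are given where an alternative moved a count by over 1.5 times; the other counts stayed within that range, and the causes were not tested. The rises and falls under T247 (2575 and 6481) became 4697 and 2705 with scaling to the 75th percentile and 3970 falls with centring on the array median. The rises became 1636 with normexp correction, 1099 for probes well above background on all arrays and 1229 with the authors' values. Differences from control (733 higher, 2348 lower) became 1253 and 1503 with quantile normalization, 1446 and 904 with the 75th percentile and 1145 and 1290 with centring. The higher ones became 388 with normexp, 1110 without a detection filter, 1124 with detection in at least 1 condition, 260 for probes well above background on all arrays, 290 with the authors' values and 1462 with array weights, and the lower ones 4227 with no threshold on the fold. Differences from MGCD0103 (291 higher, 177 lower) became 545 higher with quantile normalization, 95 lower with the 75th percentile, 119 and 47 with normexp, 450 and 347 without a detection filter, 459 and 347 with detection in at least 1 condition, 191 and 85 for probes well above background on all arrays, 84 lower with the authors' values, 663 and 407 with only the arrays compared, 707 and 505 with array weights, and 472 and 770 with no threshold on the fold. Of genes with a weaker rise under T247, the share lower at the 4-cell stage (3.08%) became 1.17% with the 75th percentile, 1.62% with normexp and 18% with no threshold on the fold. With the positive and significant flag, 960 probes went on and 208 off (1937 and 620 by the other flag). Removing the detection filter together with the fill-in and centring on the median were chosen after seeing the data.

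With the replicate block the rises and falls under T247 were 2599 and 6499, the differences from control 584 and 1727, the 4-cell share 1.94% and the differences from MGCD0103 643 and 390. With the slide as a random block the counts were 2582 and 6492 under T247 and 786 and 2448 against control. Leaving out single arrays gave 2509 to 2572 rises, 6419 to 6512 falls, 668 to 1371 higher and 2019 to 3283 lower differences from control (the highest of both without 2-cell control replicate 1), 151 to 302 and 83 to 194 from MGCD0103, a 4-cell share of 1.56 to 3.78%, and 1957 to 2112 probes on and 666 to 951 off (951 without 2-cell T247 replicate 3). For single genes, 6425 values under the alternatives stayed on the same side of the threshold, 349 lost and 3 gained the call, and 1 called value changed sign, the difference for Crxos, which was 0.26 for probes well above background on all arrays (limma adjusted P 0.405). Differences that were not called could change sign too, as for Hdac7 (-0.43 to 1.19) and Magef1 (-1.62 to 0.93). Called values could also move widely in size. Among these were the LFC of AA684185 under T247 (1.11 to 9.82) and the differences for Adgrb1 (1.40 to 4.76) and Cdk1 (-3.04 to -0.61, the call lost under 1 alternative).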
